A study of Homo sapiens with 8 samples.

Results

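The KCNQ genes encode the pore-forming subunits of a family of voltage-gated potassium channels, and the KCNE genes encode small single-pass membrane proteins that associate with such channels and change their gating. The set described here is 8 human genes, namely KCNQ1, KCNQ3 and KCNQ5 and the accessory genes KCNE1, KCNE2, KCNE3, KCNE4 and KCNE5. They were chosen by name, with earlier results of these data known. The deposited transcripts were joined to 58592 genes, of which 34290 had a count. The set has 47 annotated transcripts in the deposited tables, and 16 of them had a count in at least 1 library. The other human KCNQ genes were not analysed here.

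RNA was sequenced from HEK 293T/17 cells, a transfectable human embryonic kidney line that expresses the SV40 large T antigen, to compare cells made to overexpress KCNQ3 with normal cells. The overexpression group (4 libraries, replicates 1 to 4) received a plasmid with the tagged human KCNQ3 open reading frame by FuGene HD transfection, and RNA was taken 48 hours later. The control group (4 libraries, replicates 1 to 4) is labelled as normal HEK293T, grown in the same high-glucose medium with serum and antibiotics. The transfection protocol is attached to control samples as well, and the labels do not state what plasmid or reagent, if any, the control cells were given. The series calls the libraries biological replicates but does not say that their cultures were separate, so a p-value here measures no more than the spread among these 8 libraries, which may be technical. Total estimated counts were 24738542 to 27542588 in overexpression libraries and 24020097 to 30734915 in control libraries. All 9 markers listed for HEK293-type cells reached at least 1 TPM on average, and none of the 6 listed for adult kidney segments or the 3 for cardiac muscle did. Of the listed neuronal markers, 3 of 5 did (GAD1, SYT1 and SLC17A7, with RBFOX3 and MAP2 below), and their summed level was 12.1 to 15.3 TPM in overexpression libraries and 14.4 to 18.7 TPM in control libraries. Of the fibroblast markers, 1 of 5 did (COL1A1).

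KCNQ subunits assemble as tetramers, each contributing a stretch of the pore. In neurons, channels that contain KCNQ3 or KCNQ5 carry the M-current, a slow potassium current that opens near the firing threshold, restrains repeated firing and closes when Gq-coupled receptors deplete the membrane lipid PIP2. KCNQ1 is instead the pore subunit of the slow delayed rectifier in heart muscle, where it works with KCNE1, and of potassium channels in gut and airway epithelium, where it works with KCNE3. KCNQ3 makes little current alone and mainly acts in mixed channels with other neuronal KCNQ subunits.

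The stretch that all KCNQ pores share can be read in the genome. Each of the following windows holds 57 coding bases around the selectivity filter, the loop that admits potassium and excludes sodium. They are shown because KCNQ1 and KCNQ5 were the only members of the set with counts in every control library. They are also shown because reads of a KCNQ gene are more readily given to another where their sequences are alike. Capitals mark the codons for the Gly-Tyr-Gly motif of the filter. The first window lies in exon 7 of the transcript KCNQ1-201, on the plus strand of GRCh38 at chr11:2583435-2583491, and the second in exon 6 of KCNQ5-201, on the plus strand of GRCh38 at chr6:73105257-73105313.
KCNQ1: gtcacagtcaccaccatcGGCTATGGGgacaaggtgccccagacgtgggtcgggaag
KCNQ5: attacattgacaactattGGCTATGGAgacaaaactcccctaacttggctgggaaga
The windows are identical at 37 of 57 bases (64.9%). Across whole transcripts the longest identical run was 39 bases between KCNQ3-201 and KCNQ5-201 and 18 bases between KCNQ3-201 and KCNQ1-201. Within the coding sequences it was 17 bases for KCNQ3 with KCNQ5, 18 bases for KCNQ3 with KCNQ1 and 12 bases for KCNQ5 with KCNQ1. These runs are exact matches only, and sharing of reads between similar but not identical stretches was not tested.

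KCNQ3 was the only member of the set past the threshold (adjusted p under 0.05), and it was an abundant messenger RNA in overexpression libraries and at trace level in control libraries. KCNQ3 (ENSG00000184156, chromosome 8, 132120858 to 132481019, minus strand, GRCh38) had 15283, 15874, 19709 and 18603 estimated counts in overexpression libraries 1 to 4, against 4, 5, 0 and 2 in control libraries 1 to 4. Every overexpression library was above every control library by more than 3 orders of magnitude, and the overexpression libraries differed from each other far less than that. In TPM, a level scaled for transcript length, overexpression libraries had 178, 139, 159 and 168, against 0.0158, 0.0249, 0 and 0.0106 in control libraries. KCNQ3 ranked 896 among all genes by mean TPM in overexpression libraries and 29796 in control libraries. In bulk RNA, a larger share of cells carrying the plasmid and more KCNQ3 RNA in each such cell cannot be told apart.

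**Figure D1:**
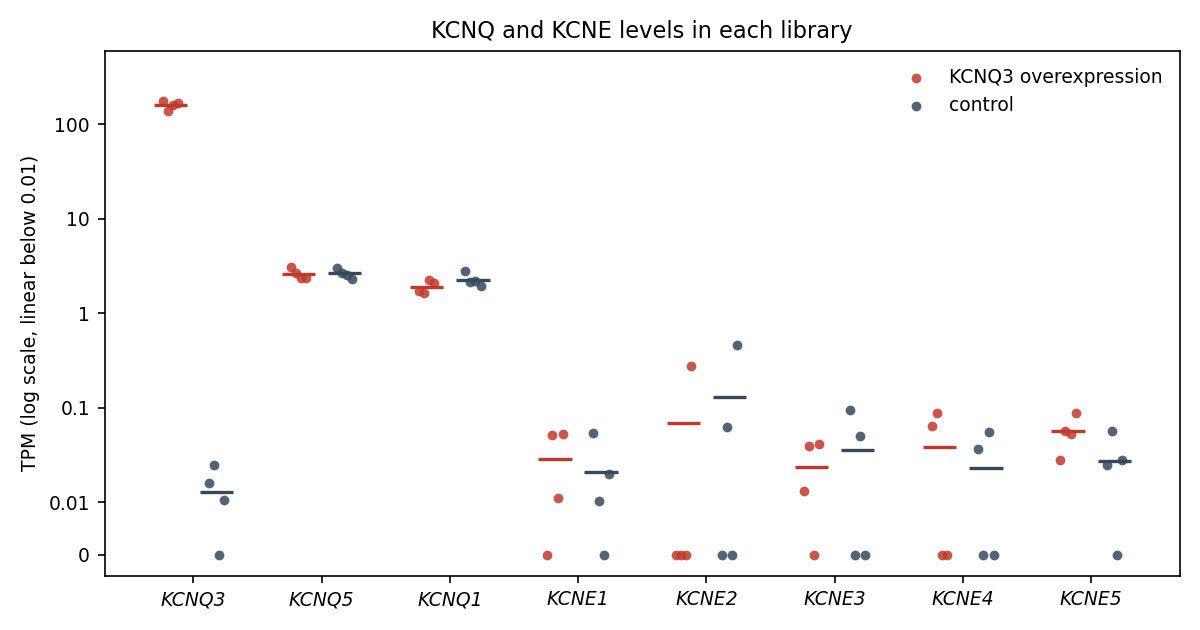
Level of each KCNQ and KCNE gene in each library, in TPM on a log axis that is linear below 0.01 TPM. Points are the 4 overexpression libraries (left of each pair) and the 4 control libraries, and bars are means; KCNQ3 averaged 161 TPM with overexpression, while no KCNE gene reached 0.5 TPM in any library.

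The log2 fold change of KCNQ3 was 12.63 (SE 0.25). In edgeR's quasi-likelihood test its p-value, adjusted over 19280 genes by the Benjamini-Hochberg method, was 6.45e-07. KCNQ3 averaged 683 ± 87.9 CPM (TMM-scaled counts per 1000000 counts of a library) in overexpression libraries and 0.0995 ± 0.080 CPM in control libraries (SD, n = 4 each). Summed over libraries, 69469 counts stood against 11. The scaled ratio of these sums was 6600.2, and its exact 95% interval, 3688 to 13222, covers counting error only. On log2(CPM + 1), the two-sided permutation test, which is exact, gave p = 0.0286, the smallest possible with 70 assignments of 4 against 4. Of the 19280 genes tested, 0.301% were called, and 5.84% had every overexpression library above every control library. The plasmid delivers this gene, so its change checks the labels of all 8 libraries.

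The deposited tables spread KCNQ3 over 2 of its 8 annotated transcripts. KCNQ3-201 (ENST00000388996) is 11510 bases long, of which 2616, or 22.7%, are coding. KCNQ3-204 (ENST00000521134) is 2577 bases long with 2256 coding bases, and 97.6% of its length lies inside KCNQ3-201. The pair shares 2230 coding bases, so most of an open reading frame maps to both.

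KCNQ3-201 had 10228, 13138, 16316 and 15302 estimated counts in overexpression libraries, against 4, 5, 0 and 2 in control libraries. KCNQ3-204 had 5055, 2736, 3393 and 3301 in overexpression libraries and 0 in every control library. KCNQ3-201 thus held 66.9%, 82.8%, 82.8% and 82.3% of the gene's counts in overexpression libraries 1 to 4. Replicate 1 stood apart with a lower share, and the other 3 lay close together. In TPM the shares of KCNQ3-201 were 31.0%, 51.7%, 51.7% and 50.8%, since the division by length weighs the short transcript more. Replicate 1 had the fewest KCNQ3 counts of the overexpression libraries but the highest KCNQ3 TPM.

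**Figure D2:**
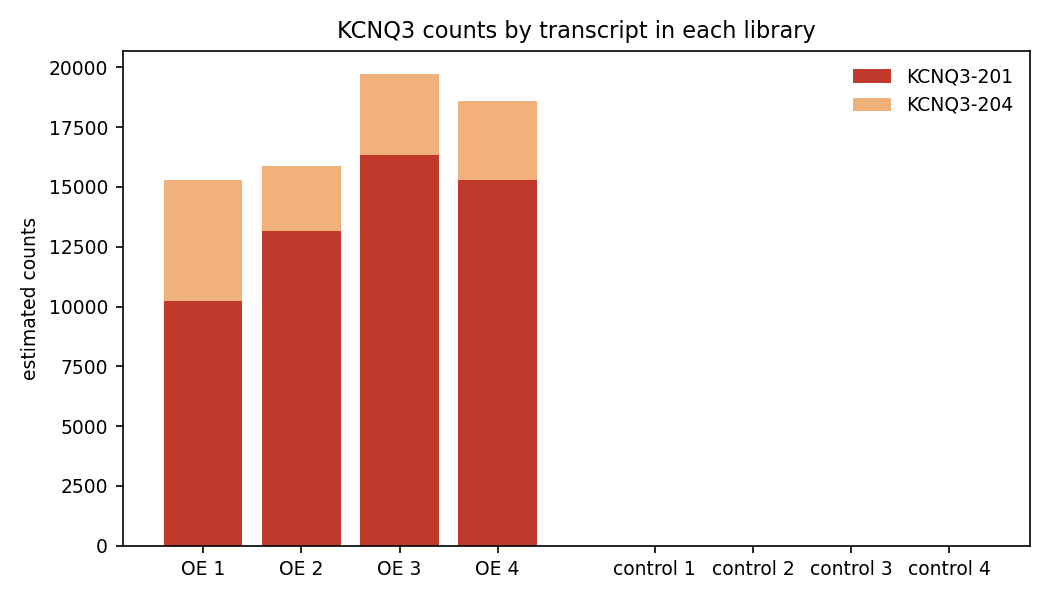
Estimated KCNQ3 counts in each library, stacked by transcript (KCNQ3-201 and KCNQ3-204), with overexpression replicates 1 to 4 left of control replicates 1 to 4. Control libraries held at most 5 counts and are not visible at this scale; overexpression replicate 1 has the largest KCNQ3-204 part, 5055 counts.

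Tested as transcripts among 47129, KCNQ3-201 had a log2 fold change of 12.29 (SE 0.83, adjusted p = 0.0406, edgeR's quasi-likelihood test), and KCNQ3-204 had an adjusted p of 0.0460. With the control group set to a floor of 3 counts in all, the scaled ratio of summed KCNQ3-204 counts, overexpression over control, was 4953. Both transcripts passed the filter on low counts only through the libraries given the gene, so these tests check the labels and no more. Of KCNQ3-204, only 62 bases (26 coding) lie outside KCNQ3-201. Its counts therefore depend on how shared reads were divided upstream, and whether this transcript itself was made was not tested. Of all transcripts tested, 0.0127% were called, and 2.66% had every overexpression library above every control library. Both calls were lost without a filter on low counts (adjusted p = 0.170) and when any library but control replicate 3 was left out (adjusted p of 0.0547 to 0.0928 for KCNQ3-201 and 0.0526 to 0.202 for KCNQ3-204). Both held with DESeq2 and with limma on log2(TPM + 1). An open reading frame holds none of the 8894 non-coding bases that the annotation gives KCNQ3-201, so the length used for its TPM is that of a longer RNA. When the summed KCNQ3 counts were divided by the 2616 coding bases instead, the level was 365, 384, 441 and 459 TPM in overexpression libraries 1 to 4. That is 412 ± 44.7 TPM (SD, n = 4), rank 329 among all genes, and the order of the libraries was then that of their CPM. The deposited level of KCNQ3 therefore depends on the assumed length by 2.05 to 2.76 times, while its place above every other member of the set does not.

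KCNQ5, the other M-current subunit of the set, was the most abundant member in control cells and did not pass the test. KCNQ5 (ENSG00000185760, chromosome 6, 72621792 to 73198851, plus strand) had 328, 269, 261 and 233 estimated counts in overexpression libraries, against 346, 258, 232 and 240 in control libraries. In CPM these were 12.3, 11.1, 9.72 and 9.65 with overexpression and 11.2, 9.75, 9.68 and 9.53 in controls. The groups overlapped, and replicate 1 was the highest library of each. Its log2 fold change was 0.09 (SE 0.09, adjusted p = 0.648, edgeR's quasi-likelihood test), with a 95% interval of -0.11 to 0.29. The interval allows a level from 0.924 to 1.23 times that of controls. On the TPM scale the mean was 2.62 ± 0.356 with overexpression and 2.64 ± 0.289 in controls (SD, n = 4 each), so the sign of this small difference turned with the unit.

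KCNQ1, the pore subunit used in heart and epithelia, also did not pass. KCNQ1 (ENSG00000053918, chromosome 11, 2444684 to 2849110, plus strand) had 89, 85, 108 and 104 estimated counts in overexpression libraries and 135, 96, 105 and 97 in control libraries. Scaled to CPM, overexpression libraries had 3.33, 3.51, 4.02 and 4.31, against 4.37, 3.63, 4.38 and 3.85 in control libraries. The groups overlapped, and the lowest pair of values both came from overexpression libraries. The log2 fold change was -0.10 (SE 0.11, adjusted p = 0.684, edgeR's quasi-likelihood test), and its 95% interval, -0.34 to 0.15, allows 0.789 to 1.11 times the control level. Together with KCNQ3 these were the 3 of 8 members that passed the filter on low counts.

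**Figure D3:**
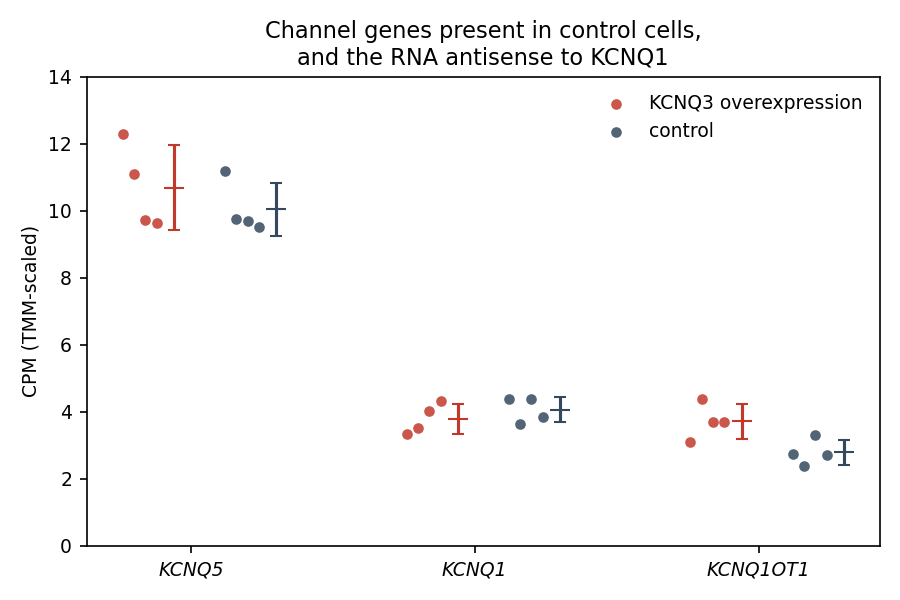
TMM-scaled CPM of KCNQ5, KCNQ1 and the antisense RNA KCNQ1OT1 in each library, with mean and SD of the 4 overexpression libraries (left) and the 4 control libraries (right). The groups overlap for all 3 genes, with KCNQ5 between 9.53 and 12.3 CPM and KCNQ1 between 3.33 and 4.38 CPM.

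By TPM, KCNQ5 exceeded KCNQ1 in all 8 libraries. The ratio of KCNQ5 to KCNQ1 was 1.82, 1.61, 1.06 and 1.14 in overexpression libraries, against 1.09, 1.26, 1.16 and 1.18 in control libraries. The ratios of the groups overlapped, with the overexpression libraries at both ends. The order of KCNQ5 above KCNQ1 exceeded the spread over overexpression libraries, where the ranges were 2.35 to 3.11 and 1.65 to 2.23 TPM. In control libraries the ranges, 2.32 to 3.02 TPM for KCNQ5 and 1.96 to 2.77 TPM for KCNQ1, overlapped. KCNQ3 exceeded the sum of both in TPM by 36.8, 32.2, 34.6 and 38.0 times in overexpression libraries, while in control libraries it was at most 0.00521 of that sum.

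Each of these genes was represented mostly by a single coding transcript. KCNQ5-201 (ENST00000342056, 6688 bases) held 99.1% ± 0.443 of KCNQ5 counts in overexpression libraries and 99.2% in control libraries. Most of the rest was KCNQ5-209, with 1, 2, 2 and 2 counts in overexpression libraries and 2, 2, 1 and 0 in control libraries. KCNQ1-201 (ENST00000155840, 3246 bases) held 100%, 100%, 88.9% and 100% of KCNQ1 counts in overexpression libraries, against 83.7%, 87.5%, 100% and 97.9% in control libraries.

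The rest of the KCNQ1 counts were nearly all in KCNQ1-207 (ENST00000646564, 1375 bases), which had 0, 0, 12 and 0 counts in overexpression libraries and 22, 12, 0 and 0 in control libraries. It was absent from 5 of the 8 libraries and took at least 12 counts in each of the other 3. In an exact two-sided permutation test of the share, KCNQ1-201 differed by 4.94 percentage points (p = 0.257, adjusted p = 0.514) and KCNQ5-201 by -0.04 percentage points (p = 0.886, adjusted p = 0.886), with both adjusted over these 2 genes.

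Whether counting used strand is unstated in the labels, and without strand the reads of a gene and of an antisense partner cannot be told apart. KCNQ1OT1, a long noncoding RNA that is transcribed antisense within KCNQ1 and is known for silencing imprinted neighbours on the paternal chromosome, shares 121 exonic bases with it. KCNQ1OT1 had 83, 106, 99 and 89 counts in overexpression libraries, against 85, 63, 79 and 68 in control libraries. In CPM, overexpression libraries had 3.11, 4.38, 3.69 and 3.68 and control libraries 2.75, 2.38, 3.30 and 2.70. The lowest overexpression library lay under the highest control library, so the groups overlapped. Its log2 fold change was 0.42 (SE 0.13), and at an adjusted p of 0.135 in edgeR's quasi-likelihood test it did not pass. KCNQ1-AS1 had 1 count in each group, and KCNQ5-AS1 had 3 counts with overexpression and 0 in controls.

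The accessory subunits were close to undetected in both groups. All 5 KCNE genes together had 34 estimated counts over the overexpression libraries and 33 over the control libraries. The scaled ratio was 1.08, with an exact 95% interval of 0.647 to 1.79 for counting error only. No library gave any KCNE gene more than 8 counts, and 15 of the 40 values were 0. A count of 0 allows a level of up to 0.0976 to 0.125 CPM, depending on the library. None of the 5 reached the filter on low counts, so none entered the gene test.

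KCNE1 (ENSG00000180509, chromosome 21, 34446688 to 34512275, minus strand), the partner of KCNQ1 in heart, had 0, 2, 1 and 3 counts in overexpression libraries and 2, 1, 0 and 1 in control libraries. Of these 10 counts, 8 belonged to KCNE1-207, a transcript without an annotated coding sequence. KCNE1B, a near copy of KCNE1 whose transcript KCNE1B-202 shares a run of 260 bases with KCNE1-203, had 1 count in overexpression replicate 4 and 0 in the others. Counts of this pair depend on how reads were divided, and KCNE1 protein-coding transcripts had 2 counts in all.

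KCNE3 (ENSG00000175538, chromosome 11, 74454841 to 74467729, minus strand), which keeps KCNQ1 channels open in epithelia, had 1, 2, 0 and 3 counts in overexpression libraries, against 6, 0, 3 and 0 in control libraries. KCNE4 (ENSG00000152049, chromosome 2, 223051814 to 223198399, plus strand), an inhibitory partner of KCNQ1, had 4, 5, 0 and 0 counts with overexpression and 3, 0, 3 and 0 in controls. Both genes had values of 0 in each group and overlapped between groups. Markers of gut and airway cells that use KCNQ1 with KCNE3 were also low, with 1 of 4 at 1 TPM or more (LGR5) and MUC2 without counts.

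KCNE2 (ENSG00000159197, chromosome 21, 34364024 to 34371389, plus strand), a partner of KCNQ1 in acid-secreting stomach cells, had 0, 0, 0 and 5 counts in overexpression libraries, against 0, 2, 0 and 8 in control libraries. Replicate 4 was the highest of each group, and 5 of the 8 libraries were at 0. An unnamed gene on the opposite strand, AP000320.1, shares 359 exonic bases with KCNE2 and had 127 counts over the overexpression libraries and 108 over the control libraries. KCNE5 (ENSG00000176076, chromosome X, 109623700 to 109625172, minus strand), another inhibitory partner of KCNQ1, had 1, 2, 2 and 3 counts in overexpression libraries, against 1, 2, 0 and 1 in control libraries. It was the only KCNE gene with a count in every overexpression library, and its groups overlapped. It shares 78 exonic bases with ACSL4 on the same strand, whose counts ranged from 4 to 1097 in overexpression libraries and from 158 to 587 in control libraries.

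**Figure D4:**
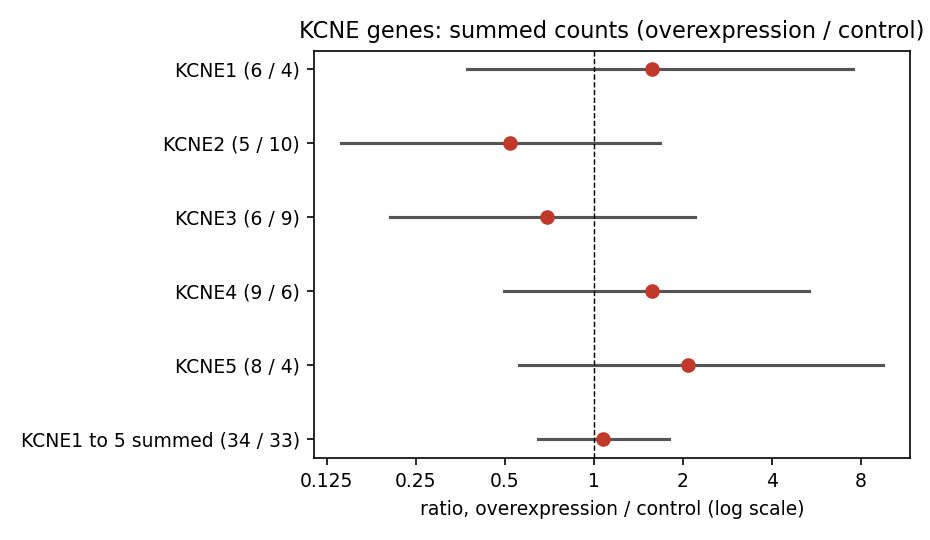
Ratio of summed counts, overexpression over control, for each KCNE gene and for their sum, on a log axis; points are ratios scaled for library size, lines are exact 95% intervals that cover counting error only, and the summed counts stand beside each name. Every interval includes 1, and that of KCNE5, the highest ratio at 2.09, runs from 0.560 to 9.49.

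The ratios of summed counts were 1.57 for KCNE1 (interval 0.372 to 7.55), 0.523 for KCNE2 (0.140 to 1.68) and 0.697 for KCNE3 (0.204 to 2.19). They were 1.57 for KCNE4 (0.498 to 5.35) and 2.09 for KCNE5 (0.560 to 9.49). At this depth, changes smaller than these intervals were not detectable. The intervals cover counting error only and leave out the spread between libraries, so larger changes may also have gone undetected. By mean TPM, the KCNE genes ran from 0.0234 (KCNE3) to 0.0692 (KCNE2) in overexpression libraries and from 0.0211 (KCNE1) to 0.131 (KCNE2) in control libraries. No pair of neighbours among them differed beyond the spread over libraries. All lay below KCNQ1, whose lowest value was 1.65 TPM in overexpression libraries and 1.96 TPM in control libraries. In control libraries KCNQ3, at 0.0128 ± 0.010 TPM (SD, n = 4), lay below the mean of every KCNE gene. That order rests on the annotated length of KCNQ3-201, and in CPM, which is not scaled for length, KCNQ3 (0.0995) and KCNE2 (0.0983) were the highest of these 6 genes in control libraries, on 11 and 10 counts.

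The windows before the KCNE genes differed in base content. RefSeq windows (GRCh38.p14) of 250 bases before the RefSeq start were available for KCNQ5, KCNE1, KCNE2, KCNE3 and KCNE5. The windows of KCNE5 and KCNE2 are shown because neither touches an annotated exon of its own gene, both genes had almost no counts, and the windows differ widely in CpG content. KCNE5 has the highest G or C content of the 8 windows, and KCNE2 the fewest CG dinucleotides. Capitals mark each CG dinucleotide. KCNE5 reads the minus strand of chrX:109625173-109625422, and KCNE2 the plus strand of chr21:34363756-34364005.
KCNE5: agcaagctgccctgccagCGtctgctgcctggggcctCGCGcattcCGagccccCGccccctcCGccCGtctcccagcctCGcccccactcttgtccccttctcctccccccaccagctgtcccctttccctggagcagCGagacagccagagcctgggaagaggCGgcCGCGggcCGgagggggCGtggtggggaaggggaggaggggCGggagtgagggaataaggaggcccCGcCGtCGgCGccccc
KCNE2: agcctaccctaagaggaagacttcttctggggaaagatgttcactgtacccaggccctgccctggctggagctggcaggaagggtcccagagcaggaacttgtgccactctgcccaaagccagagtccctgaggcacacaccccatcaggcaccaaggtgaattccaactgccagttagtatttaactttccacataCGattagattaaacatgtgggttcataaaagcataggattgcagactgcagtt
The KCNE5 window is 74% G or C and holds 19 CG dinucleotides, 0.558 of the number its base composition would give. The KCNE2 window is 50.8% G or C and holds 1, a ratio of 0.0621. GC boxes (GGGCGG or its complement CCGCCC), the motif bound by SP1, occurred 3 times in the window of KCNE5, 3 times in that of KCNQ5, 2 times in that of KCNE3 and 0 times in that of KCNE2. Of the 4 KCNE1 windows, 1 held 5 GC boxes, the most of the 8, and the others held 0. Of 35116 windows in the table, 42.6% held a GC box. KCNQ5, whose window is 64% G or C, had a ratio of 0.707, the highest of the 8 windows. All 250 bases of that window lie inside a GENCODE exon of KCNQ5, after the annotated start of KCNQ5-201. Of the KCNE3 window, 177 of 250 bases lie inside an exon of KCNE3, so these windows are annotated in full or in part as transcribed sequence. Among protein-coding genes with a window, 79.0% of the 10205 with a mean of at least 1 CPM had a ratio of at least 0.6 with at least 50% G or C, as KCNQ5 did. That share was 18.6% among the 3784 genes under 0.2 CPM, the range of the KCNE genes. Each gene entered these shares by its first listed window only, which for KCNE1 had a ratio of 0.299. Of the 4 KCNE1 windows, 1 met both limits, and those of KCNE2, KCNE3 and KCNE5 did not. A motif match describes the letters of the window only.

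The genes that modify KCNQ channels were expressed more broadly than the accessory subunits. A list of 32 partner and regulator genes held calmodulins, Gq proteins and phospholipases that couple receptors to PIP2, lipid kinases that make PIP2, anchoring proteins, kinases, ubiquitin ligases, transporters and the transcription factors SP1 and REST. Of these, 29 passed the filter on low counts. The other 3 were the muscarinic receptors CHRM1 and CHRM3, which close M-channels in neurons, and the transporter SLC5A11.

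None of the 29 passed edgeR's quasi-likelihood test at an adjusted p under 0.05, against 0.301% of all genes. At an unadjusted p under 0.05 there were 12 (41.4%), with 2 higher and 10 lower in overexpression libraries, beside 19.4% of all genes tested. The median log2 fold change was -0.08 over the list, with 9 genes above 0 and 20 below, and 0.01 over all genes. In 6 genes (20.7%) every overexpression library was below every control library, beside 5.77% of all genes, and in 0 genes was it the other way round, beside 5.84%. The list was chosen with earlier results of these data known, so these shares describe the list and do not test it. DESeq2 called 7 of the list, 1 higher and 6 lower, where it called 9.90% of the genes to which it gave an adjusted p, and limma on log2(TPM + 1) called 0.

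The smallest p-value belonged to NEDD4, a ubiquitin ligase whose relative NEDD4L lowers KCNQ channels at the cell surface. NEDD4L, also on the list, had a log2 fold change of -0.08 (adjusted p = 0.452, edgeR's quasi-likelihood test), and its groups overlapped. NEDD4 averaged 29.7 ± 1.49 CPM in overexpression libraries and 38.1 ± 3.49 CPM in control libraries (SD, n = 4 each). Its log2 fold change was -0.36 (SE 0.07, adjusted p = 0.0583, edgeR's quasi-likelihood test). It was called under 4 of 16 alternative settings. Among these were edgeR's quasi-likelihood fits without overexpression replicate 1 (adjusted p = 0.0345) and without control replicate 4 (adjusted p = 0.0270). Those fits called 378 of 19492 and 194 of 19508 genes, against 58 of 19280 in the main test. With any other library left out, the adjusted p of NEDD4 in this test was 0.107 to 0.168. The adjusted p over all 16 ran from 1.24e-04 to 0.292. GNAQ, the alpha subunit of Gq, averaged 47.3 ± 2.68 CPM in overexpression libraries and 54.1 ± 1.37 CPM in control libraries, a log2 fold change of -0.19 (SE 0.05, adjusted p = 0.0864, same test). SP1, a factor that binds GC boxes, averaged 145.6 ± 5.35 CPM in overexpression libraries and 163 ± 4.70 CPM in control libraries, a log2 fold change of -0.17 (SE 0.04, adjusted p = 0.0886, same test). None of these 3 passed in edgeR's main test, which had no covariates, while DESeq2 called all 3 (adjusted p of 1.24e-04 for NEDD4, 0.00358 for GNAQ and 0.00109 for SP1). With replicate number as a block and all libraries kept, edgeR's quasi-likelihood test called NEDD4 (adjusted p = 0.0497).

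**Figure D5:**
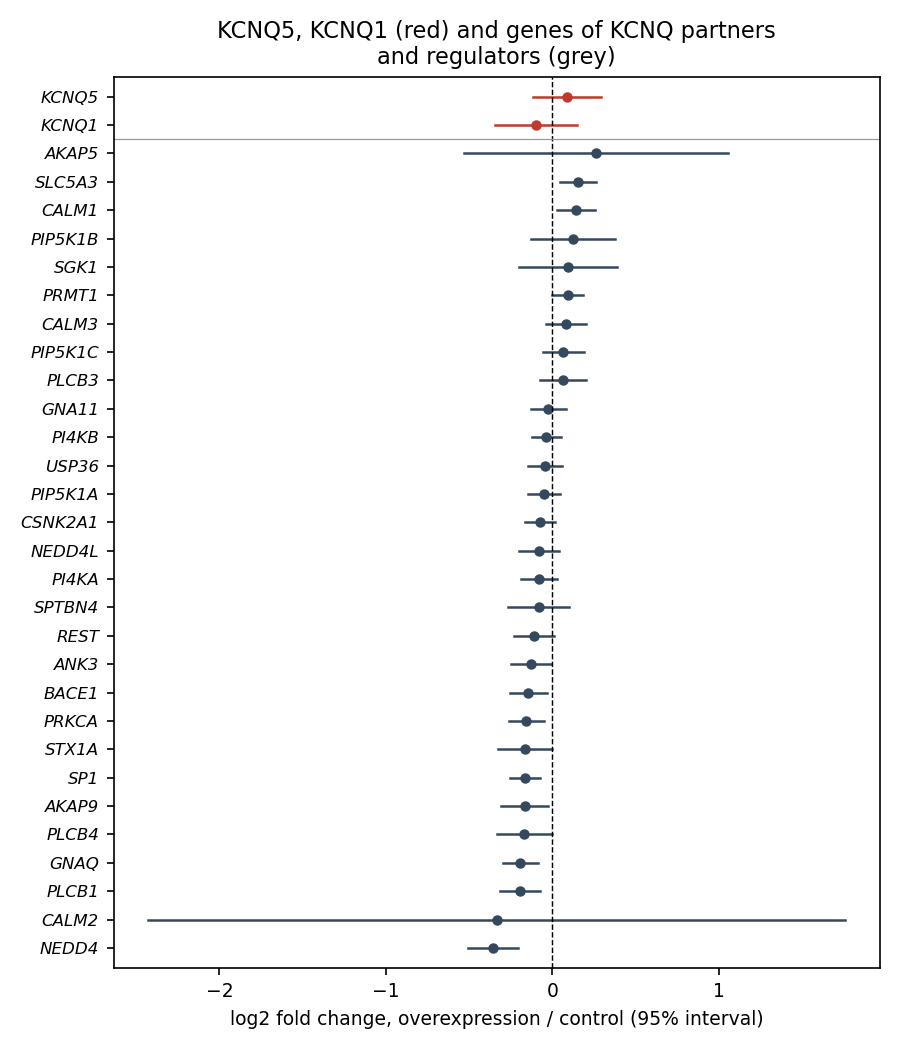
Log2 fold change, overexpression over control, with 95% interval from edgeR's quasi-likelihood test, for KCNQ5 and KCNQ1 (above the line) and for the 29 tested partner and regulator genes, in order of fold change. Estimates for the list ran from -0.36 (NEDD4) to 0.26 (AKAP5), and the widest interval is that of CALM2.

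The most abundant of the list by TPM were CALM3, PRMT1 and CALM2. CALM3, which encodes calmodulin, the calcium sensor held by KCNQ tails, averaged 340 ± 44.5 TPM in overexpression libraries and 301 ± 28.9 TPM in control libraries, with a log2 fold change of 0.08 (adjusted p = 0.440, edgeR). PRMT1, an arginine methyltransferase that modifies KCNQ channels in mouse neurons, averaged 226 ± 15.5 TPM with overexpression and 220 ± 9.33 TPM in controls (log2 fold change 0.09, adjusted p = 0.267, edgeR). CALM2, which encodes the same protein as CALM3, averaged 130 ± 76.2 TPM with overexpression and 192 ± 157 TPM in controls. Its libraries differed so much within each group that its log2 fold change of -0.33 had an SE of 0.86 (adjusted p = 0.881, edgeR).

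Other genes were compared with the members by their pattern over the 8 libraries. Besides KCNQ3, genes with at most 3 counts over the control libraries and at least 10 in each overexpression library were GH1, the growth hormone gene, with 1581 counts over the overexpression libraries and 1 over the control libraries, and the pseudogene SUGT1P1, with 135 and 0. KCNQ3 had 69469 and 11 counts, more in controls than that limit allowed. Whether the GH1 and SUGT1P1 counts came from the cells' own genes was not tested. Among 16744 genes with a mean of at least 1 CPM, the profiles nearest to KCNQ1 by root mean square difference of centred log2 CPM were DNAJC25 (0.05), EDIL3 (0.05) and PITPNM2 (0.06). The nearest to KCNQ5 were AC102953.2 (0.06), IBA57 (0.06) and ZNF608 (0.06). The median over all genes was 0.17 for each of the 2 members, and the members themselves deviated from their own mean by 0.14 (KCNQ1) and 0.13 (KCNQ5), so these likenesses are among profiles with little variation.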

How the data were processed

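Per the submitters' processing notes, the genome build was GRCh38.p13 and the tools were HISAT2 2.1.0, StringTie 2.1.0, SAMtools 1.9, cutadapt 2.8 and FastQC 0.11.5; their roles, the annotation release, strand and read length are unstated. Estimated counts (deposited by the authors, all whole numbers) and TPM (deposited in another table) are per transcript, so reads shared by isoforms, overlapping genes or copies were divided upstream. Of 227751 transcripts, 205804 were joined to genes through GENCODE 29 (GRCh38) and hold 98.7% to 98.9% of each library's counts; counts and TPM were summed per gene without rounding.

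Genes, and separately all transcripts, kept by filterByExpr (minimum count 10, minimum total 15) were tested with edgeR 4.0.16 in R 4.3.3 (quasi-likelihood, robust, TMM), 4 against 4 without covariates, and Benjamini-Hochberg adjustment over the whole table at 0.05. Single values had exact permutation tests. The code was tested on simulated data. Chi-square per degree of freedom between replicates of a group was 9.72 to 18.6, so no library was a copy of another. Alternatives were DESeq2 1.42.0, limma 3.58.1 on log2(TPM + 1) and log2(TPM + 0.1), other scalings and filters, a replicate block, and each library left out.

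Members and lists were chosen with earlier results of these data known. The genes named were every member, their transcripts with at least 10 counts, overlapping genes and copies, the 3 list genes with the smallest p and the 3 most abundant, and genes alike in pattern (prior count 2); NEDD4, GNAQ and SP1 enter by p, and CALM3, PRMT1 and CALM2 by TPM. AKAP5, NEDD4L, LGR5, MUC2 and transcripts or overlapping genes with fewer counts are named outside that rule, with their values known. Promoter windows come from RefSeq (GRCh38.p14), where KCNQ1 and KCNE4 were not matched.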

Additional observations from a re-analysis of the deposited data

Results flagged for a closer look

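In 37 groups of 4 libraries, a value far from the rest was sought (Dixon's ratio of gap to range, at its 95% critical value). Of these groups, 6 held such a value. Chance marks about 1 in 20 groups of independent values without ties, so the 6 cannot be set against that rate. KCNE2 enters in CPM and in TPM from the same counts. Where the other libraries are tied at 0 or at 100%, any differing value is marked. In overexpression replicate 1, KCNQ3-201 held 66.9% of KCNQ3 counts, against 82.3% in the nearest overexpression library. In overexpression replicate 3, KCNQ1-201 held 88.9% of KCNQ1 counts, against 100% in the other overexpression libraries. KCNQ5 had 11.2 CPM in control replicate 1, against 9.75 CPM in the nearest control library. KCNE2 had 0.277 TPM and 0.207 CPM in overexpression replicate 4, while the other overexpression libraries were at 0, and 0.462 TPM in control replicate 4, against 0.0630 TPM in the nearest control library. The KCNE2 values rest on 5 and 8 estimated counts. None of these was tested further.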

How the results depend on the processing

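The call of KCNQ3 held under all 16 alternatives of the gene test, with an adjusted p of at most 0.00872, and its permutation difference of log2(CPM + 1) was 9.21 to 9.36 with a library left out. KCNQ1 and KCNQ5 passed under none, and KCNQ1 kept its direction. The log2 fold change of KCNQ5 turned to -0.00861 with limma on log2(TPM + 1) and to -0.0121 on log2(TPM + 0.1). With a library left out, those of KCNQ5-201 ran from -0.00749 (without overexpression replicate 1) to 0.127, of KCNQ1-201 from -0.124 to 0.0390 (without control replicate 3, the only positive value) and of CALM2 from -0.71 to 0.20 (without control replicate 1, the only positive value). The KCNQ1-201 share difference, 4.94 points, was 10.2 points in TPM and ran from 2.08 (without control replicate 1) to 7.71 (without overexpression replicate 3) with a library left out, positive throughout. The KCNQ5-201 share difference turned to 3.31 points in TPM and ran from -0.233 to 0.0946 with a library left out, turning positive without control replicate 4 (0.0927) and overexpression replicates 3 (0.0485) and 4 (0.0946). Instead of 58, the gene test called 35 without scaling, 1352 with DESeq2, 7 with limma at each pseudocount and 8 to 378 with a library left out. Instead of 6, the transcript test called 521 with DESeq2, 0 without a filter, 35 and 58 with limma at pseudocounts of 1 and 0.1, 0 with the replicate block and 0 to 9 with a library left out. The cause was not tested. Same-numbered libraries did not deviate together over all genes (correlations -0.05 to 0.01), and differently numbered ones had -0.07 to 0.08. No pairing by number was seen, but correlations this close together cannot exclude it. With the replicate block the gene test called 86, of which 30 were among the 58. In edgeR's quasi-likelihood test with this block, KCNQ3 held (adjusted p = 0.00872), and KCNQ3-201 and KCNQ3-204 did not (adjusted p = 0.962). With the block 1 regulator, against 0, was called. The depth limits the KCNE genes, whose largest value was 8 counts.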
